A study of Caenorhabditis elegans with 12 samples.

Results

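The formin mutant fhod-1(tm2363) of the nematode Caenorhabditis elegans was compared with the wild type across all genes of whole larvae at the L3 stage. Its 4 libraries were set against 4 libraries of the wild-type strain N2, which are 8 of the 12 libraries of the series. The remaining 4 come from unc-120(st364), a mutant of the serum response factor that was sequenced beside it. They enter here through the estimate of the spread between libraries and through the correction for gene length, and their levels are quoted for clec-209. All larvae were grown from harvested embryos on a lawn of Escherichia coli at 15 °C until they reached L3, and no treatment was given. Groups follow the genotype, description and title of each library, since the source name attaches the mutants' strain names RW364 and XA8001 the other way round. The labels give no allele besides tm2363 for the mutant and do not say whether the libraries of a group came from separate cultures, so the p-values measure the spread between these libraries only. A gene was taken when 4 or more of the 8 libraries had a value of 10 or above, which left 5662 of the 23515 genes in the table.

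Formins nucleate and lengthen unbranched actin filaments. In the worm, FHOD-1 is found in the body-wall muscle, whose sarcomeres run in stripes along the animal and are anchored to the hypodermis and cuticle through dense bodies, and animals that lack it have thinner muscle cells with irregular dense bodies. The series asks whether FHOD-1 and the serum response factor act on muscle growth through separate pathways. RNA of whole larvae mixes muscle with hypodermis, intestine, pharynx, neurons and germline, so that a change in a gene's level cannot be assigned to 1 tissue, and more cells of a type cannot be told apart from more RNA per cell.

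The deposited values are proportional to TPM, a share of the library's transcripts corrected for gene length, and are called levels here. Estimated read totals, in units of 1e6 reads, were 21.2 to 26.6 in the mutant and 20.2 to 23.7 in wild type, and a level of 10 in a gene of median length (1260 bases) corresponds to about 375 to 492 reads in these 8 libraries. Such counts leave little counting error, and the precision is set by how far the 4 libraries of each group lie apart. Pearson correlations of log2 levels were taken across genes, and genes are no independent replicates. They were 0.967 to 0.986 among mutant libraries, 0.956 to 0.988 among wild-type libraries and 0.923 to 0.975 between the groups. Transcripts that mark the tissues of a larva were present: the summed levels of 5 markers each of body-wall muscle, pharyngeal muscle, hypodermis, intestine and neurons were at least 228 in every mutant library and at least 139.5 in every wild-type library. The 5 germline markers summed to 40.4 to 58.5 in mutant libraries and 50.6 to 86.7 in wild-type libraries. Markers of embryos and of yolk were close to 0. The 12 early-embryo genes together reached 3.98 to 5.82 in the mutant and 3.16 to 4.41 in wild type, and 6 vitellogenin genes at most 2.17 in the mutant and 1.44 in wild type. The 52 sperm genes together reached 2.64 to 22.1 in the mutant and 1.90 to 4.15 in wild type.

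The gene fhod-1 itself (chromosome I, 5058251 to 5068829, minus strand, WBcel235) was weakly represented. Its level was 3.85, 6.16, 3.21 and 5.94 in the 4 mutant libraries, against 6.19, 6.09, 6.24 and 4.00 in the 4 wild-type libraries. The groups overlap, and the difference of -0.22 on the log2(level + 1) scale was not distinguished from the spread (two-sided exact permutation p = 0.2, n = 4 each, where the smallest possible p is 0.0286). The allele tm2363 is a deletion within the gene, so a value summed over the whole gene does not check the genotype labels. Its level did not reach the filter, so it is not one of the tested genes.

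Of the 5662 genes, 220 had an adjusted p under 0.05 (limma on log2(level + 1), Benjamini-Hochberg) and are termed called, which is 3.89%. The calls comprised 140 genes that rose in the mutant and 80 that fell, or 2.47% and 1.41% of those tested. Counts of calls in the gene lists below are to be read against these shares. Rises of at least 2-fold numbered 47 and falls of at least 2-fold numbered 31. Every mutant library lay on 1 side of every wild-type library for 219 of the called genes and for 746 of all genes tested (13.2%). Among the calls the exception was ins-1. Correction of each library for gene length, an alternative that is given below for some lists only, raised the number of calls to 981 (17.3%). Of these 459 were higher and 522 lower (8.12% and 9.23%). The correction kept 218 of the 220 calls. Counts after this correction are to be read against those shares. Across all genes the median log2 fold change was 0.01, with 2876 genes fitted higher and 2786 lower. Some genes could only have passed the filter through the group in which they are high: 35 tested genes, 21 of them called, reached 10 in no wild-type library, and 21 tested genes, 10 of them called, in no mutant library. Without mutant replicate 2 the number of calls was 95, without wild-type replicate 3 it was 105, and 80 of the 220 genes (48 higher, 32 lower) were called whichever single library was left out. Other single libraries that moved the count by over 1.5 times were mutant replicates 3 and 4 (104 and 122 calls without them) and wild-type replicate 2 (108). The number of rises alone was also moved by wild-type replicates 1 and 4 (85 and 227 without them). Quantile normalization gave 154 rises and 134 falls.

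**Figure D1:**
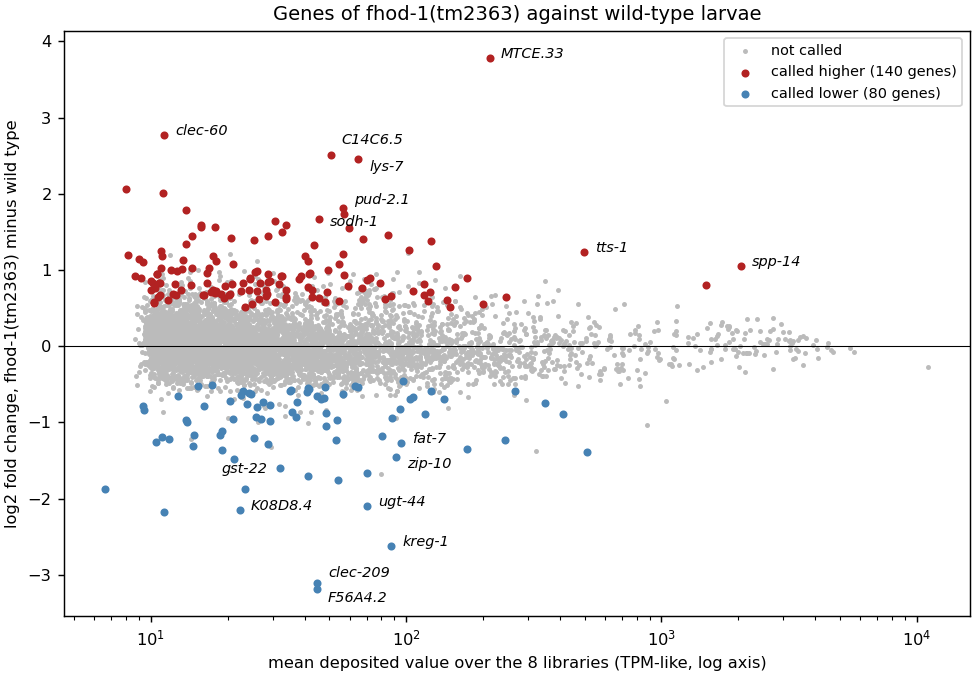
Log2 fold change (fhod-1(tm2363) minus wild type, vertical axis) of each of the 5662 tested genes against its mean level over the 8 libraries (TPM-like, log axis). Red points are the 140 genes called higher in the mutant and blue points the 80 called lower; the called genes have means of up to 2054 and lie below the 59 most abundant tested genes, and the mitochondrial ribosomal RNA MTCE.33 and the lectin gene F56A4.2 mark the ends.

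The formin acts in the body-wall muscle. Of the 49 body-wall muscle genes in the list, 36 were tested and 0 rose or fell, where 3.89% of all tested genes did, so that few calls would be due in a list of this size; 31 were fitted higher and 5 lower, with a median log2 fold change of 0.15. The most abundant, pat-10, the body-wall troponin C, averaged 1534 ± 127 in the mutant and 1582 ± 275 in wild type (SD, n = 4 each), a log2 fold change of -0.03. The myosin heavy chain unc-54 had 304, 356, 189 and 430.5 in mutant libraries, against 375, 525, 442 and 246 in wild-type libraries. Its groups overlap almost fully, and the spread within each group exceeds the difference. After correction of each library for gene length 4 body-wall muscle genes were called higher and 2 lower.

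Actin and its turnover machinery form a list of similar size. The list of formins and actin turnover genes had 29 of 43 members tested, with 0 calls, 20 fitted higher and 9 lower, and a median log2 fold change of 0.13. All 5 actin genes were fitted lower. The gut actin act-5, which fills the microvilli of the intestine, had 644, 584, 461 and 592 in the mutant, against 967, 832, 779 and 651 in wild type. Mutant libraries were all below wild-type libraries for act-5, but the adjusted p was 0.136 (log2 fold change -0.50). The muscle actin act-1 likewise had all 4 mutant libraries below all 4 wild-type libraries (391 ± 85.6 in the mutant and 551 ± 53.6 in wild type, adjusted p 0.204). Such separation is near its share over all genes. Of the 29 tested members 2 lay wholly below and 2 wholly above, where 6.45% and 6.73% of all tested genes did. The transcription factor gene unc-120 had 18.1, 19.4, 17.4 and 20.3 in the mutant, against 9.63, 15.2, 13.1 and 15.9 in wild type. These groups do not overlap, with a log2 difference of 0.47 (exact permutation p = 0.0286, the smallest possible). The adjusted p of limma over all genes was 0.183. After the length correction, under which 17.3% of all genes were called, it was 0.0472. On the opposite strand unc-120 overlaps D1081.17.

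Pharyngeal muscle, which pumps food and uses its own set of sarcomere proteins, was fitted higher throughout: 6 of 8 list members were tested and all 6 had a positive log2 fold change, with a median of 0.58, but 0 were called. Troponin I of the pharynx, tni-4, averaged 82.8 ± 8.08 in the mutant and 53.6 ± 21.8 in wild type, with an adjusted p of 0.126. The summed level of the 5 fixed pharyngeal markers was 228 to 349.6 in mutant libraries and 139.5 to 247 in wild-type libraries, so the groups overlap.

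Neuropeptide genes held more of the rises than any other of the 51 gene lists. The flp and nlp genes encode precursors of short signalling peptides that neurons and some epidermal cells release, and 75 of the 106 in the table were tested. Of these, 27 rose (36.0%, where 2.47% of all genes did) and 0 fell; 67 were fitted higher and 8 lower, with a median log2 fold change of 0.57 beside 0.01 for all genes tested. Each library's mean log2 level over the list was 5.57 ± 0.15 in the mutant and 5.06 ± 0.19 in wild type (SD, n = 4 each), and the groups do not overlap. All 27 passed the filter in both groups, and 5 of them overlap a gene on the opposite strand. The strand used in counting is not stated, so reads of such pairs cannot be told apart.

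The largest rise among them was that of nlp-51 (chromosome II, 11319241 to 11319691), a neuropeptide-like precursor. It had 50.8, 58.4, 61.2 and 54.6 in mutant libraries, against 18.6, 25.7, 26.9 and 26.3 in wild-type libraries. Wild-type libraries were all below the lowest mutant library. On the log2 scale it rose by 1.18 (SE 0.14, limma adjusted p 0.000351). Next came nlp-18 (chromosome II, 11027962 to 11030404), with 25.8, 32.2, 29.3 and 26.5 in mutant libraries, against 8.03, 15.4, 11.8 and 18.5 in wild-type libraries, and a log2 difference of 1.08 (SE 0.20, adjusted p 0.00935). The wild-type libraries of nlp-18 differ more among themselves than the mutant ones. FMRFamide-like peptides rose as well. The precursor flp-2 (chromosome X, 10094430 to 10095245), whose peptides promote arousal, had 24.8, 31.3, 31.8 and 30.6 in mutant libraries, against 14.8, 15.9, 16.1 and 18.2 in wild-type libraries. The groups are clearly apart, with a log2 difference of 0.83 (SE 0.15, adjusted p 0.0094), though flp-2 overlaps W07E11.1 on the other strand.

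Another 4 of the list, nlp-11, nlp-8, flp-4 and flp-5, were called whichever library was left out, like the 3 above. The gene nlp-8 averaged 75.4 ± 12.2 in the mutant and 43.1 ± 3.54 in wild type, with a log2 fold change of 0.78 and an adjusted p of 0.00646. For flp-4 the means were 35.5 ± 2.26 in the mutant and 20.9 ± 1.82 in wild type (0.74, adjusted p 0.00371), and for flp-5 they were 34.9 ± 3.43 in the mutant and 21.6 ± 1.40 in wild type (0.66, adjusted p 0.0094). The level of nlp-11 was 14.4, 18.7, 20.9 and 20.1 in the mutant, against 9.33, 10.3, 10.4 and 10.4 in wild type, with 3 wild-type libraries nearly equal. Its log2 fold change was 0.80 (adjusted p 0.00791).

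The remaining 20 calls had log2 fold changes of 0.58 to 1.03 and depended on single libraries. The count fell to 7 without mutant replicate 2, to 8 without wild-type replicate 3, to 11 without mutant replicate 3 or wild-type replicate 2, to 13 without wild-type replicate 1 and to 17 without mutant replicate 4, while the list's median stayed between 0.49 and 0.68. They include flp-11, the precursor of the main peptides of the sleep neuron RIS, with means of 90.0 ± 13.3 in the mutant and 49.9 ± 14.8 in wild type (0.87, adjusted p 0.0275). They also include flp-18 and flp-21, whose peptides bind the neuropeptide receptor NPR-1, with log2 fold changes of 0.67 and 0.91. The 8 members fitted lower were nlp-20, nlp-24, nlp-26, nlp-29, nlp-30, nlp-31, nlp-33 and nlp-36, with log2 fold changes of -0.43 to -0.05 and 0 calls. Several of these, nlp-29 and nlp-31 among them, are known as antimicrobial peptides of the epidermis rather than neuronal signals. After correction of each library for gene length, 48 members were called higher and 1 lower.

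Other genes of the peptide pathway gave values as follows. The peptide precursors pdf-1 and snet-1 and the processing genes below were looked at after their values were seen, except sbt-1. The pigment-dispersing factor gene pdf-1, which sustains roaming, had 61.6, 66.4, 59.7 and 56.6 in mutant libraries, against 31.7, 38.6, 32.9 and 45.4 in wild-type libraries (0.71, adjusted p 0.00935). The groups of pdf-1 do not overlap. A second precursor, snet-1, averaged 149.9 ± 17.8 in the mutant and 86.1 ± 19.01 in wild type (0.81, adjusted p 0.0101). Neuropeptides are cut out of precursors by the convertase EGL-3, which needs the chaperone SBT-1, trimmed by the carboxypeptidase EGL-21 and amidated by PGHM-1 and PGAL-1. The chaperone gene sbt-1 rose, with 293, 351, 278 and 281 in mutant libraries, against 161, 198, 175 and 239 in wild-type libraries (0.65, adjusted p 0.0245). It overlaps grl-14 on the opposite strand. Its call held in only 1 of the 8 fits that leave out a library, with adjusted p up to 0.102 without mutant replicate 2. The lyase gene pgal-1 rose by 0.59 on the log2 scale (adjusted p 0.0222, up to 0.0956 without mutant replicate 2); it lies on the opposite strand to F21F3.6. The convertase gene egl-3 had 83.4, 113, 73.3 and 136 in the mutant, against 62.0, 65.9, 65.6 and 56.4 in wild type, and egl-21 had 97.0, 124, 104 and 141 in the mutant, against 72.2, 70.4, 78.0 and 60.8 in wild type. Mutant libraries were above wild-type libraries in both, but neither was called, with adjusted p 0.191 for egl-3 and 0.0798 for egl-21. The amidating enzyme pghm-1, with means of 45.1 ± 7.06 in the mutant and 28.9 ± 2.25 in wild type, missed the threshold too (adjusted p 0.053).

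**Figure D2:**
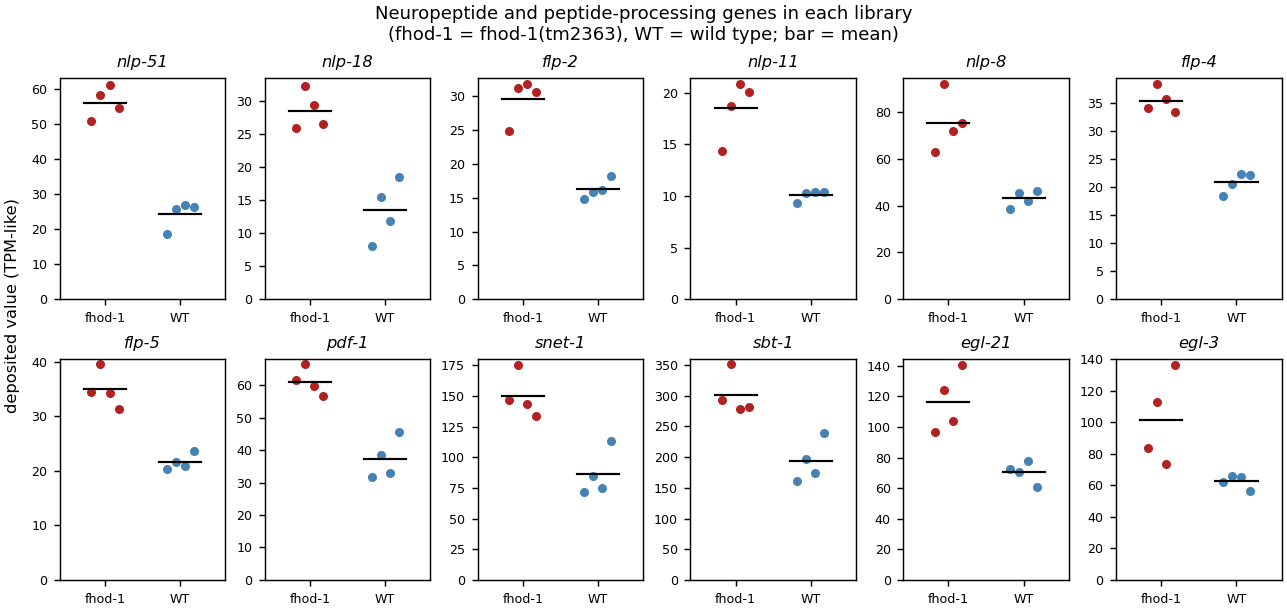
Levels (TPM-like, axes from 0) of 9 peptide precursor genes and of sbt-1, egl-21 and egl-3, which serve peptide processing; each dot is 1 library, red for fhod-1(tm2363) and blue for wild type (WT), and bars are means of 4. The mutant libraries lie above the wild-type libraries in all 12 panels, and egl-21 and egl-3 were not called.

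General neuronal genes were fitted higher, with 1 call. Of 27 neuronal genes (synaptic vesicle, dense-core vesicle and transmitter genes), 12 were tested, all 12 were fitted higher, and 1 rose, sbt-1; the median log2 fold change was 0.42, and for 6 of the 12 the groups did not overlap (6.73% of all genes lay wholly above). The synaptic GTPase rab-3 averaged 17.1 ± 1.49 in the mutant and 11.7 ± 2.67 in wild type, with an adjusted p of 0.135. The synaptobrevin gene snb-1 averaged 177 ± 20.3 in the mutant and 147 ± 5.21 in wild type (adjusted p 0.342). Summed over the list, neuronal levels were 876 to 1080.3 in mutant libraries and 609 to 723 in wild-type libraries. The neuronal and neuropeptide lists were thus both higher in the mutant. Their order among mutant libraries differed, in values not corrected for gene length. Tested neuronal genes have a median length of 1706 bases and tested neuropeptide genes 587. The mean log2 level of the neuronal list was highest in mutant replicate 4 (5.62) and lowest in replicate 3 (5.30). That of the neuropeptide list was highest in replicate 2 (5.73) and lowest in replicate 4 (5.40). The part of neuronal levels in the neuropeptide rise was not tested, nor was the part of gene length in this order. After the length correction 8 of the 12 were called higher and 0 lower.

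Insulin-like peptides and the TGF-beta signals are secreted by neurons as well. Of 48 insulin-like peptide and insulin pathway genes, 12 were tested. Of these 4 rose, ins-17, ins-35, ins-1 and ins-5 (33.3%, where 2.47% of all genes did), while 0 fell. The median log2 fold change was 0.40. The gene ins-17 (chromosome III, 4476888 to 4477583) had 46.3, 58.7, 61.6 and 55.3 in mutant libraries, against 37.3, 32.2, 31.6 and 39.9 in wild-type libraries, a log2 difference of 0.64 (SE 0.13, adjusted p 0.0175). Every mutant library of ins-17 exceeded every wild-type library. For ins-35 the means were 37.5 ± 5.30 in the mutant and 20.9 ± 6.55 in wild type (0.85, adjusted p 0.0279). The gene ins-5 reached 10 in no wild-type library, and ins-1 is the 1 called gene whose groups overlap. None of the 4 calls survived the removal of each single library, with adjusted p up to 0.0701 for ins-17 without wild-type replicate 3 and 0.138 for ins-1 without mutant replicate 2. The kinase genes akt-1 and akt-2 were not called (log2 fold changes 0.21 and 0.05).

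All 8 tested genes of the 18 in the TGF-beta list were fitted higher and 0 were called, with a median of 0.29. The ligand daf-7, which the sensory neurons ASI make in well-fed larvae, had 19.2, 27.0, 24.6 and 44.7 in the mutant, against 7.17, 12.4, 11.9 and 15.5 in wild type. Its groups do not overlap, with a log2 fold change of 1.21 and an adjusted p of 0.0854. The body-size ligand dbl-1 averaged 12.9 ± 1.42 in the mutant and 9.55 ± 1.86 in wild type (adjusted p 0.223). Both were looked at after their values were seen.

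**Figure D3:**
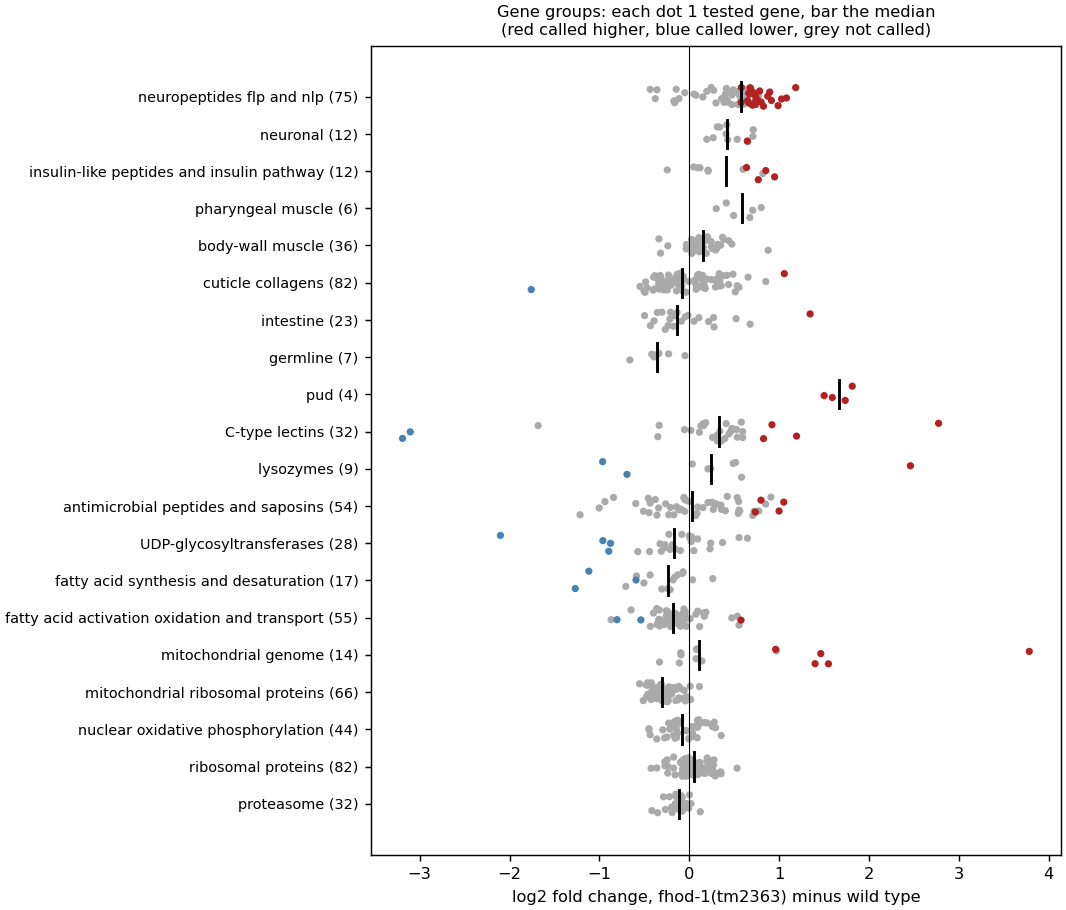
Log2 fold change (fhod-1(tm2363) minus wild type, horizontal axis) of every tested member of 20 gene lists, with the number tested in brackets; each dot is a gene (red called higher, blue called lower, grey not called) and each bar is the list's median. The neuropeptide and pud lists hold their calls to the right of 0, the desaturase and glycosyltransferase lists to the left, and the mitochondrial ribosomal protein list lies mostly left of 0 with 0 calls.

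The mitochondrial genome split into 2 sets of genes. All 14 of its annotated protein and ribosomal RNA genes were tested. Of these 5 rose (35.7%, where 2.47% of all genes did) and 0 fell, and the median log2 fold change was 0.11. The ribosomal RNAs, the core of the mitochondrial ribosome, come first. Ribosomal RNA is not the target of these mRNA libraries, so its level may depend on how they were prepared. The part of library preparation in these levels was not tested. The large-subunit RNA MTCE.33 (mitochondrial genome, 10403 to 11354) averaged 396 ± 56.4 in the mutant and 28.7 ± 8.90 in wild type. The small-subunit RNA MTCE.7 (898 to 1593) had 162, 119, 119 and 95.1 in mutant libraries, against 75.9, 30.7, 35.6 and 42.6 in wild-type libraries. Wild-type replicate 1 is the highest of its group for both RNAs and remains below all mutant libraries. The log2 fold change of MTCE.7 was 1.46 (SE 0.27, adjusted p 0.00906), and the call held without any single library.

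The complex I subunit genes nduo-3, nduo-2 and ndfl-4 also rose, while nduo-6 was not called. The gene nduo-3 (11356 to 11691) had 117, 92.1, 99.5 and 80.8 in mutant libraries, against 57.6, 28.3, 26.5 and 38.5 in wild-type libraries (1.40, adjusted p 0.0218), and nduo-2 (3389 to 4269) had 62.1, 53.9, 61.6 and 45.4 in mutant libraries, against 33.3, 24.7, 25.6 and 28.8 in wild-type libraries (0.96, adjusted p 0.0432). The groups are separate for both, and nduo-3 overlaps nduo-5 in the table. The small gene ndfl-4, which overlaps nduo-6 by a base in the table, had means of 89.02 ± 14.6 in the mutant and 30.0 ± 6.43 in wild type (adjusted p 0.0375). These 3 calls were lost without single libraries, with adjusted p up to 0.0742 for nduo-3 without wild-type replicate 3, 0.128 for nduo-2 without mutant replicate 3 and 0.122 for ndfl-4 without mutant replicate 3; the number of calls in the list was then 2 to 4. For nduo-6 the mutant libraries all lay above the wild-type libraries, with means of 149 ± 40.9 in the mutant and 75.03 ± 17.7 in wild type, but the adjusted p was 0.167.

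The abundant mitochondrial messengers gave no calls. Cytochrome oxidase subunit ctc-1 had 4234, 3223, 3142 and 3227 in mutant libraries, against 5971, 2724, 3453 and 3203 in wild-type libraries, and the ATP synthase subunit atp-6 averaged 2358 ± 756 in the mutant and 2677 ± 1286 in wild type. Their groups overlap: wild-type replicate 1 is above every mutant library and the other wild-type libraries are below the highest mutant library. Levels of ctc-2, ctc-3, ctb-1, nduo-1, nduo-4 and nduo-5 overlapped too, with log2 fold changes of -0.33 to 0.14.

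**Figure D4:**
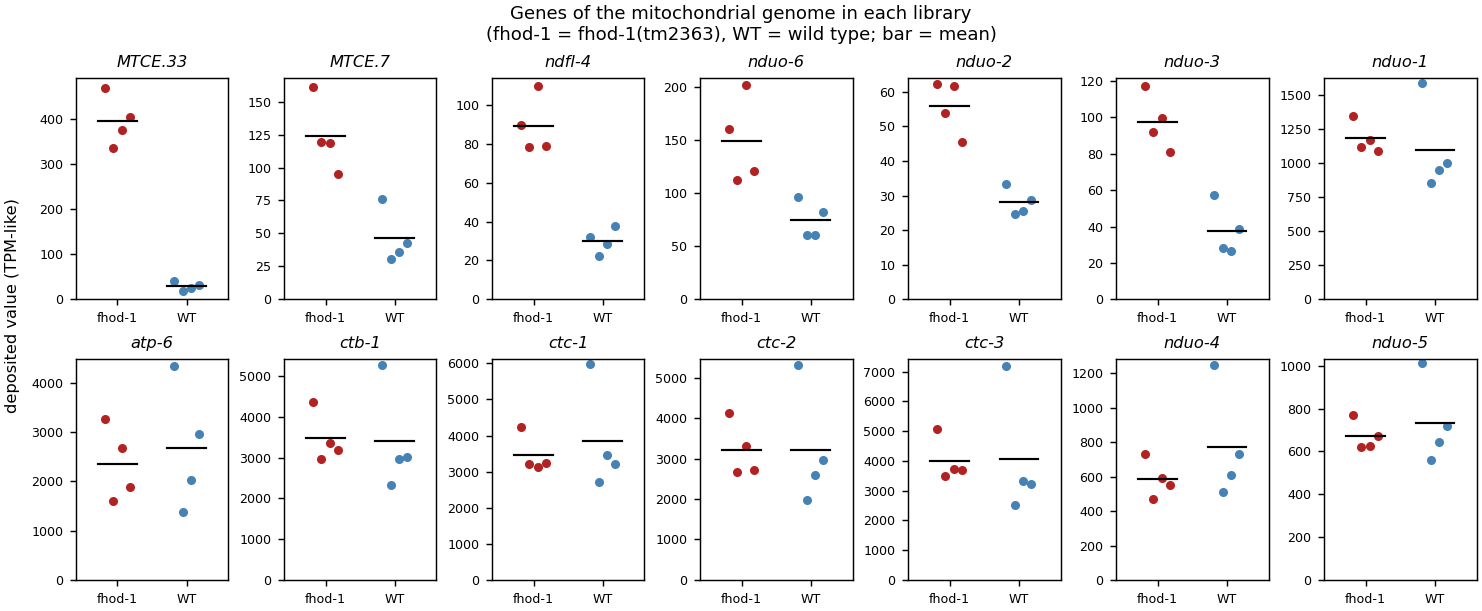
Levels (TPM-like, axes from 0) of the 14 genes of the mitochondrial genome; each dot is 1 library, red for fhod-1(tm2363) and blue for wild type (WT), and bars are means of 4. In the first 6 panels the mutant libraries lie above the wild-type libraries, while in the other 8, which hold the abundant messengers, the groups overlap.

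In 3 lists of nuclear genes for mitochondrial ribosomes, the respiratory chain and the citric acid cycle 1 gene was called. Of 70 mitochondrial ribosomal protein genes, 66 were tested and 0 were called, but 63 were fitted lower and 3 higher, with a median log2 fold change of -0.30. In 18 of them all mutant libraries lay below all wild-type libraries (6.45% of all genes did). The mean log2 level over the list was 5.28 ± 0.10 in the mutant and 5.56 ± 0.09 in wild type (SD, n = 4 each), and the groups do not overlap. The most abundant, mrps-33, averaged 123 ± 16.4 in the mutant and 175 ± 45.8 in wild type (log2 fold change -0.48, adjusted p 0.285). After the length correction 34 of the 66 were called lower and 0 higher. Nuclear subunits of the respiratory chain differed less: 44 of 52 were tested, 0 were called, 18 were fitted higher and 26 lower, and the median was -0.08. In the citric acid and glyoxylate cycle list, 1 of 25 tested genes fell, the succinyl-CoA ligase sucl-2 (53.0 ± 6.12 in the mutant and 77.0 ± 2.86 in wild type, adjusted p 0.0245, up to 0.102 without mutant replicate 2, opposite F23H11.2), and none of the 17 tested genes of glycolysis and gluconeogenesis was called. Outside these lists, and picked out after their values were seen, the mitochondrial carrier gene dif-1 fell by 0.46 (adjusted p 0.0441, up to 0.138 without mutant replicate 2) and the fission factor gene mff-2 by 0.63 (adjusted p 0.0301, up to 0.0985 without mutant replicate 4).

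The desaturases fat-5, fat-6 and fat-7 fell. Of 21 genes for fatty acid synthesis, elongation and desaturation, 17 were tested. Of these 3 fell (17.6%, where 1.41% of all genes did), 0 rose, and 15 were fitted lower, with a median log2 fold change of -0.24. All 3 are delta-9 desaturases, which put the first double bond into saturated fatty acids. The palmitate desaturase fat-5 (chromosome V, 17725004 to 17726818) had 8.91, 16.7, 10.4 and 10.7 in mutant libraries, against 32.0, 21.5, 28.8 and 22.5 in wild-type libraries. Its log2 fold change was -1.12 (SE 0.20, adjusted p 0.00877), with separate groups, and it overlaps twk-42 on the other strand. The stearate desaturases are fat-6 and fat-7. The level of fat-6 was 234, 232, 194 and 196 in the mutant, against 319, 323, 314 and 331 in wild type, where the 4 libraries were close together (-0.59, adjusted p 0.0164, up to 0.0656 without mutant replicate 3). The level of fat-7 was 54.5 ± 10.1 in the mutant and 137 ± 46.2 in wild type (-1.27, adjusted p 0.00906). Desaturases of later steps, fat-1, fat-2, fat-3 and fat-4, had log2 fold changes of -0.18 to 0.04 and 0 calls. The elongase elo-6 averaged 222 ± 39.95 in the mutant and 366 ± 85.5 in wild type, with separate groups and an adjusted p of 0.0724.

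Lipid breakdown and transport genes were called about as often as all genes (5.45%, beside 3.89%). Of 80 genes in that list 55 were tested, 1 rose and 2 fell, 44 were fitted lower, and the median was -0.18. For 10 of the 55 all mutant libraries lay below all wild-type libraries, and for 2 all above (6.45% and 6.73% of all genes). After the length correction 4 were called higher and 12 lower (8.12% and 9.23% of all genes). The lysosomal lipase lipl-5, which is induced by fasting, rose (57.5 ± 4.10 in the mutant and 38.3 ± 3.17 in wild type, log2 fold change 0.58, adjusted p 0.0221). The beta-oxidation genes hacd-1 and ech-7 fell by 0.80 and 0.54 on the log2 scale (adjusted p 0.0315 and 0.0331). All 3 calls were lost without single libraries, with adjusted p up to 0.0695, 0.102 and 0.131 without mutant replicate 2.

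Called genes for other lipid enzymes, all but asah-1, were picked out after their values were seen, and no list of them was tested. The acid ceramidases asah-1 and asah-2, which split ceramide, rose. The level of asah-1 was 14.6, 23.2, 15.9 and 27.3 in the mutant, against 5.93, 8.78, 6.05 and 8.07 in wild type, a log2 fold change of 1.34 (adjusted p 0.0127, 0.0505 without mutant replicate 2); it stood in the intestine list as the 1 call among 23 tested. For asah-2 the means were 13.0 ± 1.75 in the mutant and 5.68 ± 1.82 in wild type (1.11, adjusted p 0.0245, up to 0.0875 without mutant replicate 2). Both reached 10 in no wild-type library, so they passed the filter through the mutant alone. The serine palmitoyltransferase sptl-1, which starts ceramide synthesis, fell by 0.55 (adjusted p 0.0282, up to 0.106 without mutant replicate 2), the diacylglycerol acyltransferase dgat-2 by 0.73 (adjusted p 0.0128) and the fatty acid amide hydrolase faah-2 by 0.95 (adjusted p 0.0143). Of these, sptl-1 and dgat-2 overlap genes on the opposite strand.

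Innate immune genes changed in both directions. Lysozymes cleave bacterial cell walls, and of 15 genes 9 were tested. Of these 1 rose and 2 fell (33.3% called, beside 3.89% of all genes). The gene that rose is lys-7 (109.9 ± 12.3 in the mutant and 20.1 ± 7.71 in wild type). The gene lys-2 had 124, 102, 106 and 93.8 in mutant libraries, against 137, 195, 167 and 196 in wild-type libraries, a log2 fold change of -0.69 (adjusted p 0.016, up to 0.0603 without wild-type replicate 2). Its mutant libraries are all below its wild-type libraries. For lys-3 the means were 9.03 ± 2.50 in the mutant and 18.4 ± 3.92 in wild type (-0.96, adjusted p 0.0306, up to 0.0947 without mutant replicate 4).

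C-type lectins are secreted or membrane proteins with a sugar-binding fold, and 32 of 236 were tested. Of these 4 rose and 2 fell (18.75% called, beside 3.89% of all genes), all 6 whichever library was left out. The median was 0.33. The gene clec-60 (chromosome II, 10480152 to 10481846), which bacterial pathogens induce, had 18.1, 19.04, 18.4 and 25.8 in mutant libraries, against 3.25, 2.89, 1.66 and 1.06 in wild-type libraries. Every mutant library was far above every wild-type library, with a log2 difference of 2.77 (SE 0.28, adjusted p 7.92e-05). The other 3 that rose were clec-17 (1.19), clec-10 (0.92) and clec-72 (0.83). The 2 that fell were clec-209 (chromosome V, 2351676 to 2352932) and F56A4.2 (chromosome V, 2459637 to 2460893). For clec-209 the levels were 9.55, 6.31, 9.64 and 8.76 in mutant libraries, against 96.2, 77.4, 81.0 and 69.1 in wild-type libraries, and for F56A4.2 they were 9.40, 6.03, 8.82 and 8.01 in mutant libraries, against 96.0, 81.6, 80.6 and 67.7 in wild-type libraries. These are the deepest falls among the genes named here, with log2 fold changes of -3.10 (adjusted p 6.43e-08) and -3.19 (adjusted p 4.47e-08). Their values stood at a ratio of 0.95 to 1.09 to each other in the 8 libraries and the current name table gives both identifiers 1 symbol, so reads of near-identical copies may have been split between them and the 2 calls are not independent. The unc-120(st364) libraries, which share the wild-type controls, had 4.92 to 7.29 for clec-209. Of the 6 calls, clec-60 and clec-17 reached 10 in no wild-type library and clec-209 and F56A4.2 in no mutant library.

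Antimicrobial peptide and saposin-like genes had 54 of 92 members tested. Of these 4 rose (7.41%, where 2.47% of all genes did) and 0 fell, with a median of 0.04. The saposin-like gene spp-14 (chromosome X, 7725955 to 7726383) was the most abundant called gene. It had 2713, 2887, 3126 and 2366 in mutant libraries, against 1287, 1516, 1248 and 1287 in wild-type libraries. The log2 fold change was 1.05 (SE 0.17, adjusted p 0.0038), and the call held without any single library, as did that of spp-18 (66.2 ± 8.76 in the mutant and 32.9 ± 6.72 in wild type, 1.00, adjusted p 0.00906). The pore-forming saposin spp-5 averaged 1906 ± 263 in the mutant and 1097 ± 181 in wild type (0.80, adjusted p 0.037, up to 0.13 without mutant replicate 2), and the defensin-like abf-6, opposite nhr-27, rose by 0.73 (adjusted p 0.0447, up to 0.136 without wild-type replicate 3). In the list of infection-response irg and dod genes 31 were tested, with a median of -0.07. Of these 1 rose (dod-3) and 2 fell (ZK6.11 and fmo-4), or 9.68% called beside 3.89% of all genes. The flavin monooxygenase fmo-4 had 78.8, 62.5, 55.9 and 76.5 in mutant libraries, against 121, 114, 132 and 116 in wild-type libraries (-0.82, adjusted p 0.0279, up to 0.102 without mutant replicate 2).

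Genes known to be raised by the transcription factor DAF-16 when insulin signalling is low were fitted higher in 17 of 18 tested cases, with a median log2 fold change of 0.48. Calls numbered 3, lys-7, dod-3 and ctl-1, all higher (16.7% of those tested, beside 2.47% of all genes). The gene dod-3 had 16.1, 31.1, 20.03 and 20.04 in mutant libraries, against 7.84, 6.31, 3.81 and 4.53 in wild-type libraries (1.78, SE 0.22, adjusted p 0.000351). No wild-type library of dod-3 reached 10, and the call held without any single library. The catalase gene ctl-1 averaged 32.1 ± 4.66 in the mutant and 20.6 ± 2.63 in wild type (adjusted p 0.047), and this call was lost without any 1 of the 8 libraries, with adjusted p up to 0.148 without mutant replicate 4. Catalases ctl-1, ctl-2 and ctl-3 lie in tandem and are near-identical, so their shares of the reads are uncertain. The small heat shock genes of the list had log2 fold changes of 0.19 to 0.68 and 0 calls.

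Among enzymes that detoxify small molecules, the glycosyltransferases ugt-44, ugt-16, ugt-19 and ugt-62 fell. UDP-glycosyltransferases add sugars to lipophilic compounds, and 28 of 67 were tested. Of these 4 fell (14.3%, where 1.41% of all genes did) and 0 rose, with a median of -0.17. Beside ugt-44, with means of 25.8 ± 5.34 in the mutant and 115 ± 25.1 in wild type, ugt-16 fell whichever library was left out. It had 29.6, 36.3, 31.4 and 39.2 in mutant libraries, against 61.5, 61.0, 62.3 and 67.8 in wild-type libraries (-0.88, adjusted p 0.00877). The groups of ugt-16 are far apart and each is tight. The gene ugt-19 fell by 0.96 (adjusted p 0.0134, 0.0516 without wild-type replicate 2) and ugt-62 by 0.90 (adjusted p 0.0344, up to 0.122 without mutant replicate 3). Of 70 glutathione transferase and antioxidant genes 42 were tested, 3 rose and 1 fell (9.52% called, beside 3.89% of all genes). The transferase gst-22 (chromosome V, 16231032 to 16232317), opposite F21H7.12, had 16.8, 15.2, 16.7 and 11.5 in mutant libraries, against 32.7, 61.2, 38.1 and 63.5 in wild-type libraries. Its groups do not overlap, with a log2 difference of -1.59 (SE 0.23, adjusted p 0.0017). The 3 that rose were ctl-1, ctl-3 (0.69, adjusted p 0.0248, up to 0.0942 without mutant replicate 2) and the glutathione peroxidase gpx-3 (25.9 ± 5.05 in the mutant and 9.60 ± 5.70 in wild type, adjusted p 0.0454, up to 0.125 without mutant replicate 3). Cytochromes P450 gave 0 calls among 21 tested, and metal-response genes 1 fall among 10, kreg-1 (24.0 ± 8.67 in the mutant and 151 ± 43.9 in wild type).

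The pud genes encode small proteins that are raised in mutants of the insulin receptor. The table holds 6, of which 4 were tested, and all 4 rose, with a median log2 fold change of 1.66, whichever library was left out. The pairs pud-2.1 and pud-2.2, and pud-1.1 and pud-1.2, had nearly equal levels in each of the 8 libraries (ratios of 0.85 to 1.02 and of 0.91 to 1.07), so their reads may be split between near-identical copies and the 4 calls are not independent. The level of pud-1.1 was 50.6 ± 4.50 in the mutant and 16.8 ± 5.59 in wild type (SD, n = 4 each), and that of pud-2.1 was 87.9 ± 15.6 in the mutant and 25.5 ± 10.2 in wild type.

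Some of the largest rises concern genes of metabolism and membranes. The alcohol dehydrogenase sodh-1 (chromosome V, 11888236 to 11889634) had 47.8, 65.7, 73.0 and 91.4 in mutant libraries, against 12.4, 23.4, 25.8 and 23.9 in wild-type libraries. All mutant libraries of sodh-1 are above all wild-type libraries, with a log2 difference of 1.67 (SE 0.25, adjusted p 0.0018). The caveolin gene cav-1 (chromosome IV, 9772510 to 9773470), which encodes a coat protein of plasma membrane pits, had 32.1, 46.5, 31.1 and 38.2 in mutant libraries, against 12.6, 16.5, 9.38 and 16.1 in wild-type libraries (1.39, adjusted p 0.0021). The secreted SCP-family gene scl-2 (chromosome IV, 13057678 to 13059085) averaged 30.1 ± 2.56 in the mutant and 10.98 ± 3.47 in wild type (1.41, adjusted p 0.00117). These 3 calls held without any single library. Less is known of C14C6.5 (chromosome V, 536628 to 537418), the second largest rise among genes with a mean of at least 20, with 68.6, 80.5, 80.8 and 116 in mutant libraries, against 7.66, 17.5, 13.8 and 20.9 in wild-type libraries (2.50, adjusted p 0.000977). The gene EGAP4.1 averaged 40.8 ± 3.48 in the mutant and 16.6 ± 9.40 in wild type, and its call (adjusted p 0.0415) was lost without single libraries, up to 0.11 without mutant replicate 2.

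Further rises were named after their values were seen. The long non-coding RNA tts-1 (chromosome X, 1504131 to 1504841), which binds ribosomes in long-lived mutants, had 565, 859, 796 and 567 in mutant libraries, against 236, 275, 257 and 417 in wild-type libraries. It was among the most abundant called genes, with a log2 fold change of 1.24 (adjusted p 0.00906). The DNase II gene nuc-1, which degrades the DNA of dead cells and food, had 41.1, 46.6, 34.4 and 41.5 in mutant libraries, against 25.2, 22.7, 21.2 and 22.2 in wild-type libraries (0.81, adjusted p 0.00289). The cell cycle inhibitor cki-1, a homologue of p27, averaged 52.4 ± 5.62 in the mutant and 30.3 ± 5.28 in wild type (0.78, adjusted p 0.0102). All 3 held without any single library.

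**Figure D5:**
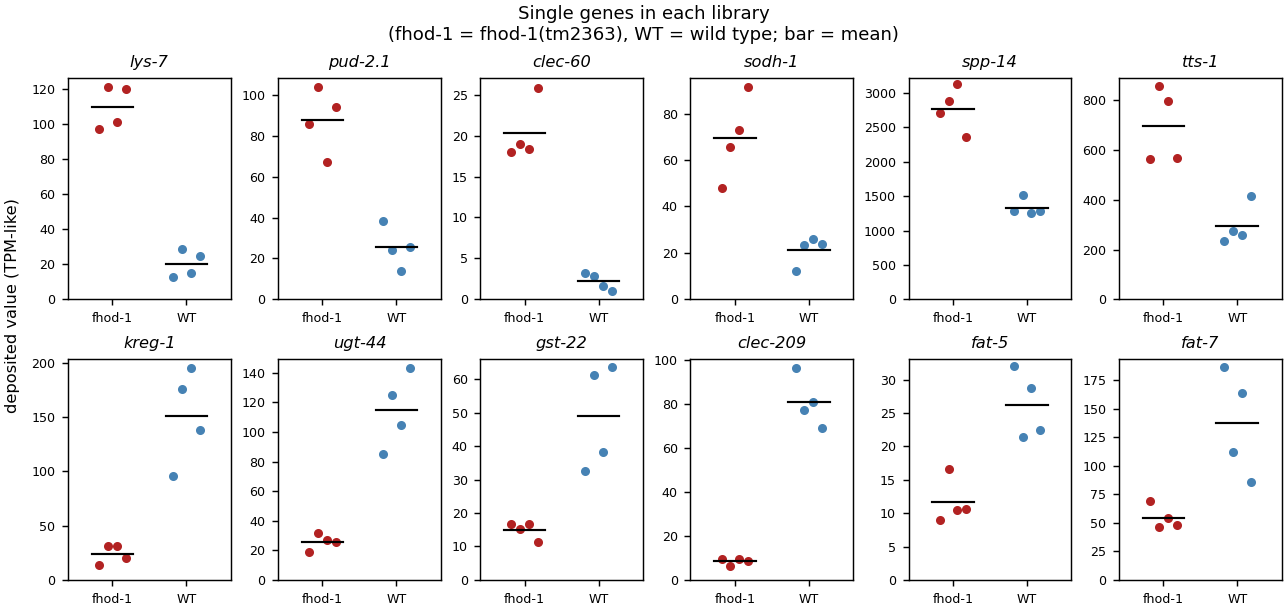
Levels (TPM-like, axes from 0) of 12 genes that rose (upper row) or fell (lower row) in fhod-1(tm2363); each dot is 1 library, red for the mutant and blue for wild type (WT), and bars are means of 4. The groups are separate in every panel, and the wild-type libraries of gst-22 and fat-7 are spread more widely than the mutant ones.

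Other genes stood among the 15 largest falls. The gene K08D8.4 (chromosome IV, 12907469 to 12909998) had 8.68, 7.96, 7.35 and 6.16 in mutant libraries, against 31.8, 38.5, 46.7 and 31.6 in wild-type libraries. The mutant libraries are all far below the wild-type libraries, with a log2 difference of -2.15 (SE 0.16, adjusted p 4.63e-06), but none of them reached 10, so K08D8.4 passed the filter through wild type alone. The gene Y41C4A.32 (chromosome III, 11721706 to 11723602) averaged 18.7 ± 3.75 in the mutant and 64.1 ± 16.9 in wild type (-1.71, adjusted p 0.000312), and F22H10.2 (chromosome X, 16678488 to 16679823) 9.36 ± 2.87 in the mutant and 37.2 ± 10.8 in wild type (-1.87, adjusted p 0.00451). The serpentine receptor gene srr-6 averaged 10.9 ± 4.18 in the mutant and 31.4 ± 7.29 in wild type (-1.48, adjusted p 0.00906). The gene F08G2.5 (chromosome II, 13832870 to 13833653) had 26.2, 39.5, 42.8 and 25.6 in mutant libraries, against 91.0, 114, 101 and 122 in wild-type libraries (-1.67, adjusted p 0.000829). The calls of these 5 held without any single library. The bZIP transcription factor zip-10 was the 1 call among 13 tested bZIP genes and overlaps skp-1 on the opposite strand. It had 30.6, 64.1, 61.0 and 38.01 in mutant libraries, against 76.5, 153, 159 and 148 in wild-type libraries (-1.46, adjusted p 0.0102). The gene nhr-8, which acts in xenobiotic resistance and sterol balance, was the 1 call among 34 tested nuclear hormone receptors and lies opposite F33D4.6 (14.1 ± 1.58 in the mutant and 20.4 ± 1.52 in wild type, adjusted p 0.0488, up to 0.157 without mutant replicate 3). F23A7.4 and the tetraspanin tsp-2 fell by 1.35 and 1.28, and both calls were held without only 1 of the 8 libraries, with adjusted p up to 0.122 without wild-type replicate 1 and 0.0968 without mutant replicate 4.

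Cuticle collagens were called at a share near that of all genes (2.44%, beside 3.89%). Of 82 tested collagens among 177, 1 rose (col-176) and 1 fell (col-133), with a median of -0.08. The gene col-176 had 199, 177, 149 and 169 in mutant libraries, against 50.3, 128, 86.9 and 82.6 in wild-type libraries (1.06, adjusted p 0.0151, 0.0505 without mutant replicate 2). The gene col-133 had 27.6, 19.04, 23.6 and 18.4 in mutant libraries, against 166, 65.6, 58.4 and 53.2 in wild-type libraries (-1.76, adjusted p 0.0298, up to 0.102 without mutant replicate 2), and wild-type replicate 1 is far above the other libraries. The apical matrix and molting list (21 tested), the hedgehog-related list (18), the collagen-processing list (6), the basement membrane list (12) and the astacin list (5) had 0 calls. In the list of abu and pqn genes of the pharyngeal cuticle 24 were tested and 1 rose, pqn-60 (0.93, adjusted p 0.0248, up to 0.0906 without mutant replicate 2).

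Timing and germline genes bear on whether the larvae were of the same age. Among 10 tested heterochronic and molting regulators 1 rose: lin-28, the RNA-binding protein that holds early larval fates, had 19.9, 29.2, 23.0 and 22.9 in mutant libraries, against 11.8, 15.3, 13.6 and 19.4 in wild-type libraries. Its groups do not overlap, with a log2 fold change of 0.64 (adjusted p 0.0399, up to 0.147 without mutant replicate 2). The others, among them lin-41 (-0.01), lin-42 (-0.26) and lin-46 (-0.61), were not called. Outside the list, the long non-coding RNA H36L18.2 (chromosome X, 12652591 to 12653520), now named lep-5 and known from the same heterochronic pathway, fell. It had 411, 214, 299 and 197 in mutant libraries, against 1165, 519, 638 and 636 in wild-type libraries (-1.39, adjusted p 0.033, up to 0.12 without mutant replicate 2). Wild-type replicate 1 is the highest of its group, and the groups do not overlap. Germline genes had 7 of 41 members tested, all 7 fitted lower, 0 called and a median of -0.36. After the length correction 3 of the 7 were called lower and 0 higher, where 9.23% and 8.12% of all genes were. The argonaute gene csr-1 averaged 12.4 ± 2.33 in the mutant and 20.6 ± 5.69 in wild type (adjusted p 0.194). Summed germline levels were 173 to 270.03 in the mutant and 214 to 370.2 in wild type, so the groups overlap. Of sperm genes 0 of 52 passed the filter, with summed levels of 2.64 to 22.1 in mutant libraries and 1.90 to 4.15 in wild-type libraries. The part of a small difference in age in the other results was not tested.

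Histone H3.3 genes rose together. Of 9 histone genes tested among 72, 2 rose (22.2%, where 2.47% of all genes did) and 0 fell. The 2 are his-72 and his-71, which encode the replacement histone. The level of his-72 was 127, 157, 153 and 139.7 in the mutant, against 73.1, 98.0, 99.6 and 91.0 in wild type (0.67, adjusted p 0.0167, up to 0.0695 without mutant replicate 2). For his-71 the means were 175 ± 15.05 in the mutant and 123 ± 14.6 in wild type (0.51, adjusted p 0.0377, up to 0.138 without mutant replicate 2). The linker histone his-24 averaged 95.4 ± 22.5 in the mutant and 55.6 ± 10.8 in wild type and was not called (adjusted p 0.0868). Genes of DNA replication and the cell cycle gave 0 calls among 20 tested.

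No gene of the large housekeeping groups was called, where 3.89% of all tested genes were. Cytosolic ribosomal proteins (82 tested) had a median log2 fold change of 0.05, and their summed level was 191346 to 222661 in mutant libraries and 181866 to 204357 in wild-type libraries. The proteasome list had 32 tested genes, 29 of them fitted lower, with a median of -0.11, and its summed level was 3508 to 3915 in the mutant, against 4048 to 4353 in wild type. Translation factors and tRNA synthetases (64 tested, 57 fitted lower, median -0.14) and chaperones (63 tested, 41 fitted lower, median -0.13) gave 0 calls as well. After the length correction 8 genes of the translation list and 1 of the proteasome list were called lower, and 0 higher. Of the chaperones 11 were then called lower and 1 higher, where 9.23% and 8.12% of all genes were. The vacuolar ATPase (19 tested, median 0.06) and the excretory canal list (2 tested) completed the groups with 0 calls. The most abundant tested members of the 21 lists with tested genes but no call, among them rpl-41.2, eef-1A.1, crt-1, atp-2, gpd-3, pas-5, vha-2, pdi-2 and ost-1, had log2 fold changes of -0.52 to 0.68 and adjusted p of at least 0.136. The next 3 lists held 1 or 2 calls each. Of the lysosomal and digestive proteases 1 of 20 fell, cpr-3 (-0.60, adjusted p 0.0153, up to 0.0594 without wild-type replicate 2). Of the transthyretin-related genes 2 of 37 rose, ttr-28 (0.92, adjusted p 0.0102), which reached 10 in no wild-type library, and ttr-23 (0.97, adjusted p 0.0243, up to 0.0991 without mutant replicate 2), and of the tubulins 1 of 13, tbb-6 (0.74, adjusted p 0.0294, up to 0.102 without mutant replicate 2).

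The share of genes called varied between chromosomes. On chromosome V 5.86% of tested genes were called and on X 5.26%, against 1.96% on I and 1.45% on III. Some called genes were neighbours. Runs of at least 3 called genes with gaps of at most 100 kb were taken. Each span therefore starts and ends at a called gene, and its share of calls is high by construction. The runs given here are those with the highest shares, and the sparsest run held 3 calls among 23 tested genes. Of all tested genes 3.89% were called. On chromosome V between 2322038 and 2352932 all 5 tested genes were called, the 4 pud genes higher and clec-209 lower. On chromosome IV between 15641215 and 15648298 all 3 tested genes rose, Y105C5A.13, Y105C5A.12 and Y105C5A.14, the first 2 of them overlapping on opposite strands and the third lying opposite Y105C5A.1272. On chromosome II between 1631995 and 1657302 all 3 rose, C08E3.13, C08E3.1 and ZC204.12, with C08E3.13 and C08E3.1 overlapping likewise. On X between 10077597 and 10095245 3 of 4 tested genes rose, col-176, flp-3 and flp-2, and both flp genes lie opposite W07E11.1. Within 1 Mb of fhod-1 itself 166 genes were tested and 5 were called, 2 higher (pgal-1 and poml-3) and 3 lower (cey-3, mff-2 and wdr-12). That share of 3.01% is below the 3.89% of all tested genes and above the 1.73% on the rest of chromosome I, and it rests on 5 genes. A mutant strain can carry linked differences around a selected allele, and the labels do not give its crossing history; their part in these calls was not tested.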

How the data were processed

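RNA was extracted with TRIzol from frozen whole larvae and made into TruSeq Stranded mRNA libraries, per the labels' protocols. The submitters' processing notes name Bowtie2 2.2.5, Partek and the genome build WBcel235; the counting setting is not given in the sources used here. The deposited table holds 1 column per library, which the authors call normalized counts. Every column sums to 638200, and in single-exon genes low values times gene length fall on whole multiples of 1 step for 98.1% to 99.7% of values (within 0.02), so the deposited values were treated as TPM, a length-scaled share, up to a constant. The step gave the read totals, which are estimates.

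Levels were analysed as log2(value + 1), so fold changes of low genes are understated. The 5662 genes with a value of 10 or above in 4 or more of the 8 libraries were fitted in all 12 libraries, with 1 mean per group, by lmFit and trended eBayes of limma 3.58.1 in R 4.3.3. Calls are those with an adjusted p (Benjamini-Hochberg over these genes) under 0.05. For single values the exact permutation test was used, two-sided. Positions are those of the table on WBcel235, 1-based; 99.46% of identifiers were found in Ensembl release 115, which gave lengths for 5655 tested genes. The 51 gene lists, the members and the tests were chosen with earlier results of these data known. The symbols ram-4 and dod-8 were not found in the table. The genes named by rule were fhod-1, unc-120, the 15 largest rises and 15 largest falls among calls whose mean is 20 or more and whose groups are separate, and in each list the called members (up to 6 with the smallest p) or else its most abundant member, of which part is given only as a range; others are stated as chosen after their values were seen, or are given as examples of a list. Alternatives were pseudocounts, filters, scalings, moderation, gene length corrections (loess span 0.5), a replicate block, the 8 libraries alone and leaving out each library. The procedure was tested on simulated data.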

Additional observations from a re-analysis of the deposited data

Results flagged for a closer look

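In each group of 4 libraries, the highest or lowest library was compared with the other 3 for the genes and gene lists named here. A library was singled out where its gap to the nearest of the others took up an unusually large part of the group's range (Dixon's 95% critical value). Of 306 groups checked 17 were singled out, and chance alone gives about 1 in 20.

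In the mutant, replicate 2 stood apart for the pharyngeal troponin gene tnc-2 at 96.3, with the others at 78.6 to 81.4. Mutant replicate 3 stood apart for pud-1.1 at 43.9 (others 52.1 to 53.5) and for the mean log2 level of the ribosomal protein genes at 11.1 (others 10.9). Mutant replicate 4 was high for EGAP4.1 at 46.0 (others 38.7 to 39.3), clec-60 at 25.8 (others 18.1 to 19.04) and the vacuolar ATPase gene vha-2 at 1144 (others 948 to 975).

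In wild type, replicate 1 was singled out most often. It was high for col-133 at 166 (others 53.2 to 65.6) and low for zip-10 at 76.5 (others 148 to 159), nlp-51 at 18.6 (others 25.7 to 26.9), nlp-11 at 9.33 (others 10.3 to 10.4) and his-71 at 101 (others 128 to 132). Wild-type replicate 2 was high for spp-14 at 1516 (others 1248 to 1287) and low for the mean log2 level of the astacin genes at 3.94 (others 4.21 to 4.25). Wild-type replicate 3 was high for the hedgehog-related gene wrt-10 at 435 (others 294 to 313). Wild-type replicate 4 was low for fhod-1 at 4.00 (others 6.09 to 6.24), eef-1A.1 at 1826 (others 3315 to 3464) and clec-72 at 9.86 (others 12.2 to 12.5).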

How the results depend on the processing

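Against 220 calls (140 higher, 80 lower), a filter of at least 1 in 4 or more libraries gave 677 (499 and 178), no filter beyond a value above 0 gave 766 (587 and 179), and a mean of at least 50 gave 61 (36 and 25). The loess correction for gene length gave 981 (459 and 522) and the library's length slope as a covariate 1162 (667 and 495). Quantile normalization gave 134 lower. The labels do not say whether the replicate numbers pair the libraries. Same-numbered libraries of the 2 groups deviated from their group means with correlations of 0.53, 0.00, -0.51 and -0.51. These values were not corrected for gene length, along which the libraries differ, so they cannot settle whether the libraries are paired. With the replicate block there were 327 calls, 212 of them higher, and with the block and the loess correction 1557 (729 and 828). Leaving out 1 library gave 95 to 299 calls, 54 to 227 higher and 35 to 72 lower. Pseudocounts of 0.5 and 10, upper-quartile scaling, limma without a trend and the 8 libraries alone moved no count of all calls by over 1.5 times. The difference in length slope between the groups, 0.00026, changed sign when single libraries were left out (-0.058 to 0.053). No named gene changed direction at a call. In 28 cases over all alternatives other than leaving out a library a named gene lost its call and in 20 it gained one; among those that leave out a library 213 lost it and 0 gained it. Of the list medians 602 stayed within the spread between libraries and 5 moved beyond it, all with the filter on a mean of 50. The causes were not tested. At these depths counting error is small beside the spread between 4 libraries, which limits what differences can be called.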

Other observations

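Some called genes that belong to no list share known functions, and they were picked out after their values were seen. The autophagy genes lgg-2, which encodes an Atg8 protein of the phagophore membrane, and dct-1, which encodes a receptor for the removal of mitochondria, were both called higher. The level of lgg-2 was 73.5, 122, 103 and 106 in mutant libraries, against 38.6, 59.9, 66.8 and 61.8 in wild-type libraries (0.83 on the log2 scale, limma adjusted p 0.0499, up to 0.171 without mutant replicate 2). For dct-1 the means were 34.4 ± 7.29 in the mutant and 19.1 ± 5.23 in wild type (0.83, adjusted p 0.0331, up to 0.126 without mutant replicate 2). Both overlap genes on the opposite strand (lsm-7 and sfxn-2).

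The galectins lec-10 and lec-11, which bind galactose-containing sugars, were called lower. The level of lec-10 was 296, 261, 219 and 266 in mutant libraries, against 451, 489, 468 and 345 in wild-type libraries (adjusted p 0.046, up to 0.146 without mutant replicate 3), and lec-11 fell by 0.87 (adjusted p 0.0197, up to 0.0642 without wild-type replicate 2). On the opposite strand lec-11 overlaps dnj-11. The haem transporter hrg-4, which is expressed when haem is scarce, had 9.84, 7.91, 10.3 and 7.58 in the mutant, against 21.2, 20.98, 14.8 and 18.03 in wild type (-0.99, adjusted p 0.00918), and this call held without any single library. The gene F56A4.3, which lies near F56A4.2 on chromosome V, had 3.56, 3.44, 3.04 and 3.27 in the mutant, against 28.3, 15.8, 14.1 and 18.9 in wild type (-2.18, adjusted p 1.81e-05), and C34C12.9 on chromosome III had 2.34, 2.54, 2.09 and 2.12 in the mutant, against 10.3, 11.5, 11.8 and 10.3 in wild type (-1.87, adjusted p 6.71e-06). Neither reached 10 in a mutant library.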
